A study of Mus musculus with 6 samples.

Results

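The genes described here are 10 that mark or control follicular helper T cells (Cxcr5, Izumo1r, Bcl6, Il21 and Icos), regulatory T cells (Foxp3 and Ikzf2) and the helper lineage (Cd4, Zbtb7b and Gata3). They were chosen by name among 27338 distinct gene names on the array, and all 10 were found, read by 16 probes of 41163. Izumo1r carries its older name Folr4 on the array. Of the 10 genes, 8 gave a signal well above background and were tested among 16389 genes, and Il21 and Foxp3 did not. The cells were liver CD8+ T cells, isolated from female mice on the C57BL/6 background at 13-14 weeks of age. The TGC3 group (dnTGFbetaRII CXCR3-/-) carried the dnTGFβRII transgene and lacked the chemokine receptor CXCR3. The TG group (dnTGFbetaRII) carried the same transgene with CXCR3 present. Each group had 3 samples on a 1-colour array each, named here TGC3 1 to TGC3 3 and TG 1 to TG 3. Both groups express a dominant negative TGF-beta receptor II, and no sample without the transgene was analysed here. The labels do not name the transgene's promoter. The line in general use drives it from Cd4 regulatory sequence.

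Follicular helper T cells are CD4+ cells that enter B cell follicles and help B cells. They follow the chemokine CXCL13 through the receptor CXCR5, their identity depends on the repressor BCL6, and they secrete IL-21. Regulatory T cells restrain immune responses under the transcription factor FOXP3, which TGF-beta can induce. The CD4 lineage is fixed in the thymus by GATA3 and ThPOK (the product of Zbtb7b), while RUNX3 silences Cd4 in the CD8 lineage. CD8+ T cells do not carry the helper programme as a whole, although CXCR5+ CD8+ T cells and CD8+ T cells with FOXP3 are known.

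The sequences below show what the readings of the genes that changed, and of Cd4, rest on. They are the array's 60-base oligonucleotide probes, with letters and mm9 positions as the files give them. For Cxcr5 (chr9:44320071-44320130, minus strand) and Bcl6 (chr16:23965160-23965219, minus strand) only bases 1 to 30 are shown. Those for Izumo1r (chr9:14706235-14706840, minus strand, a span of 606 bases for 60 bases of probe) and Cd4 (chr6:124817706-124817765, minus strand) are whole.
Cxcr5: gggaaaccaatgctatagcttcagagactg
Bcl6: cagggtttggctgtgtctaaactgcattag
Izumo1r: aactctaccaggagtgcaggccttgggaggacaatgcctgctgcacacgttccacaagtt
Cd4: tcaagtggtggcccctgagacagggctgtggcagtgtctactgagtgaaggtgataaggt

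Values are log2 signals after each array's 75th percentile was subtracted, so that 0 is the level of that percentile. Changes are TGC3 minus TG on this scale ± the standard error from limma, and p is adjusted by Benjamini-Hochberg over all 16389 genes, with 0.05 as the threshold. The labels do not state whether each array had a mouse of its own, so p-values measure only the spread between these samples, which may be technical. The TGC3 arrays shared a slide and a scan, the TG arrays shared another, and differences by slide and by genotype cannot be told apart throughout. In a bulk sample, fewer cells that express a gene and less RNA per cell cannot be told apart either. Arrays had 58.9% to 63.8% of probes well above background. Cxcr3 differed as the genotypes require (change -11.35 ± 0.12, adjusted p = 9.6e-07 in limma). The sort markers Cd8a (-0.20 ± 0.10, adjusted p = 0.201), Cd8b1 (-0.08 ± 0.08, adjusted p = 0.463) and Cd3e (-0.22 ± 0.07, adjusted p = 0.0519) did not pass in limma. Cd8b1 was 0.02 after cyclic loess, and centring on the median brought Cd8a (adjusted p = 0.0464 in limma) and Cd8b1 (0.0367) past the threshold, both lower. Cd3e passed as lower under 7 of 19 alternatives (adjusted p = 0.0128 to 0.0471 in limma). Of the 6 CD8 T cell markers tested, 0 were higher and 2 lower, Cd3g (-0.29 ± 0.08, adjusted p = 0.0415 in limma) and Cd3d (-0.25 ± 0.07, adjusted p = 0.048), with a median change of -0.21. Their summed signal, in multiples of each array's 75th percentile, was 594 to 644 in TGC3 and 657 to 729 in TG, and its part in the lower values below was not tested.

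3 members fell in TGC3 cells, and all 3 belong to the follicular helper group: Cxcr5, Izumo1r and Bcl6. No member rose in limma, and of those with a change above 0, Cd4 had an unadjusted p of 0.0728 and Zbtb7b one of 0.0829. Over all genes tested, 9.45% were called lower, 16.6% higher and 26% in either direction. Of all calls 63.7% were higher, or 27.4% after centring each array on its median. Icos, Ikzf2, Cd4, Zbtb7b and Gata3 did not pass.

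Cxcr5, the receptor for CXCL13, had scaled values of 0.46, 0.99 and 0.83 on TGC3 1 to TGC3 3. The TG values were 2.33, 2.22 and 2.30. All TGC3 values lay below all TG values, as for 22.4% of all genes, and the TGC3 arrays were the more spread. In intensity units the signal was 818, 1209 and 1107 in TGC3 cells and 2830, 2664 and 3055 in TG cells. The mean was 0.76 ± 0.27 in TGC3 and 2.28 ± 0.06 in TG (SD, n = 3 each). The change was -1.53 ± 0.14 (limma, adjusted p = 0.00226), or 2.88-fold lower in TGC3 cells. Only 50 of the 16389 genes had a more negative change. The call held under all 19 alternative ways of processing the data.

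Izumo1r encodes a member of the folate receptor family, also called FR4, found on regulatory and follicular helper T cells. It read -1.87, -1.67 and -2.35 in TGC3 samples, against -1.12, -1.23 and -1.31 in TG samples. The groups did not overlap, with TGC3 lower as for 22.4% of all genes, and TGC3 3 was the lowest. The change was -0.74 ± 0.18 (limma, adjusted p = 0.0277), or 1.68-fold lower in TGC3 cells. The call was lost without TGC3 1, TG 1, TG 2 or TG 3 (adjusted p = 0.0597 to 0.0848 in limma) and with no filter on dim probes (0.0652). With a normexp background correction, which raises dim signals, the change was -0.49.

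Bcl6, the repressor that the follicular helper programme depends on, had values of 1.84, 1.70 and 1.73 in TGC3 cells, against 2.34, 2.11 and 2.28 in TG cells. The groups were again separate (TGC3 lower, as for 22.4% of all genes), by a smaller distance than for Cxcr5. The mean was 1.76 ± 0.07 in TGC3 and 2.24 ± 0.12 in TG (SD, n = 3 each). The change of -0.49 ± 0.08 (limma, adjusted p = 0.0109) put the TGC3 signal 1.40-fold lower. It was called under all 19 alternatives, with changes between -0.66 and -0.40.

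Il21, the cytokine by which follicular helper cells act on B cells, was not well above background on any array. Its probe read 4.61, 3.20 and 4.07 intensity units in the TGC3 samples and 3.21, 3.32 and 3.75 in the TG samples. The lowest signal called well above background was 18.1, 12.8 and 16.3 units for TGC3 1, TGC3 2 and TGC3 3 and 12.1, 12.6 and 14.3 for TG 1, TG 2 and TG 3. No fold is given for it, since neither group had a measured level.

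Icos, a costimulatory receptor of activated T cells, was read by 2 probes well above background. The brighter gave 3.36, 3.32 and 3.37 in TGC3 cells, against 3.52, 3.60 and 3.35 in TG cells. The groups overlapped through TG 3. The change of -0.14 ± 0.08 did not pass (limma, adjusted p = 0.245), with a 95% interval from -0.34 to 0.06. The second probe gave -0.04 ± 0.08 (limma over all probes, adjusted p = 0.71). Centring on the median brought the brighter probe past the threshold (-0.31, adjusted p = 0.026 in limma).

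**Figure D1:**
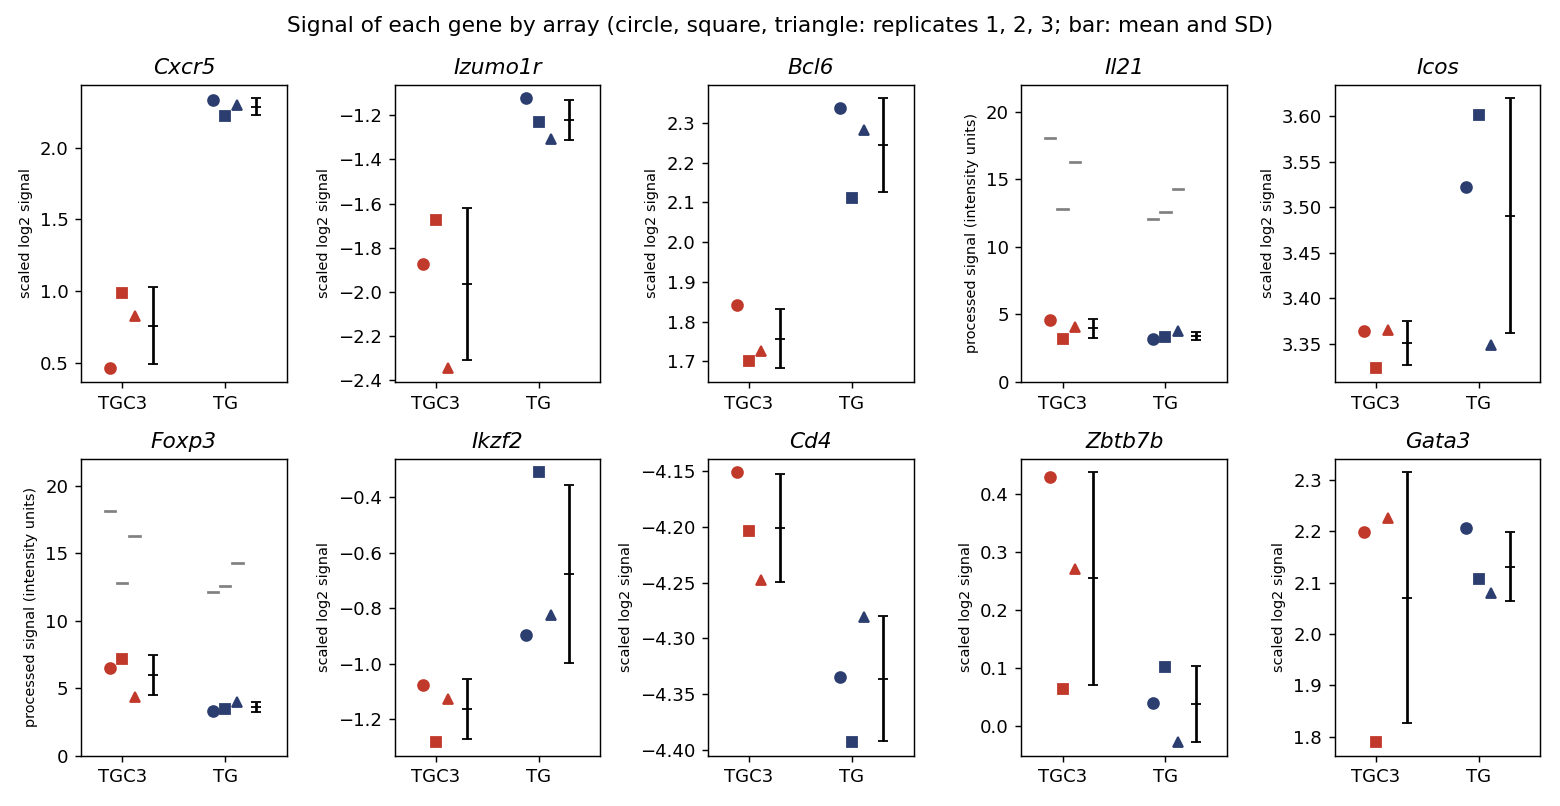
Signal of each gene on each array, TGC3 left of TG, as scaled log2 signal or, for Il21 and Foxp3, as processed signal in intensity units. Symbols stand for replicates 1 to 3, the bar for the mean ± SD, and grey dashes for the lowest signal called well above background on that array. Cxcr5, Izumo1r, Bcl6 and Ikzf2 lie apart between the groups, with all TGC3 values lower, as for 22.4% of all genes. Cd4 lies apart with all TGC3 values higher, as for 24.3%. Il21 and Foxp3 lie below the dashes on all 6 arrays.

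Of the regulatory T cell pair, Foxp3, the factor that defines the lineage, was not well above background on any array. Its probe read 6.49, 7.13 and 4.34 intensity units in TGC3 and 3.32, 3.48 and 3.99 in TG, below the lowest signal above background on each array given for Il21. All TGC3 values lay above all TG values, as for 24.3% of all genes tested, but no direction or fold is read from values without a measured level. With no filter on dim probes Foxp3 did not pass (limma, adjusted p = 0.117).

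Ikzf2 encodes Helios, an Ikaros family factor of regulatory T cells that other T cells can also express. It was read by 5 probes, each well above background on all 6 arrays. Its brightest probe (chr1:69577853-69577912 in mm9, minus strand) gave -1.08, -1.28 and -1.13 in TGC3 cells, against -0.90, -0.31 and -0.83 in TG cells. All TGC3 values were below all TG values, as for 22.4% of all genes, and TG 2 was the highest. The change of -0.49 ± 0.17 did not pass (limma, adjusted p = 0.0803), with a 95% interval from -0.89 to -0.08. The other 4 probes gave -0.26 ± 0.22, -0.15 ± 0.20, -0.11 ± 0.22 and -0.05 ± 0.15, with adjusted p of 0.43 to 0.848 in limma over all probes. All 5 changes were below 0, and none passed. Centring each array on its median, which moved the median change of all genes to -0.18 against -0.01 as reported, brought the brightest probe past the threshold (change -0.66, adjusted p = 0.0251 in limma).

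**Figure D2:**
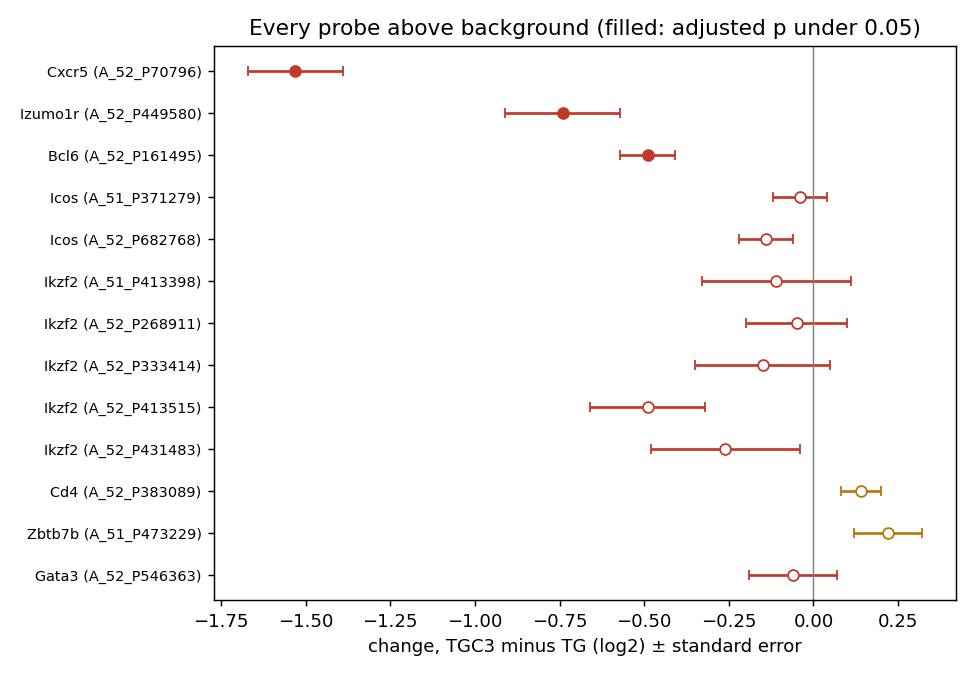
Change of each of the 13 member probes well above background, as TGC3 minus TG on the log2 scale (x axis) with its standard error, named by gene and probe (y axis). Filled points passed the threshold over all probes: 3 of the 13, those of Cxcr5, Izumo1r and Bcl6, were lower, against 8.37% of all 25103 probes tested.

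Among the helper lineage genes none passed. Cd4, the coreceptor of helper T cells, had a signal close to background on all arrays. Its probe with 10 spots per array read 33.4, 33.1 and 32.8 intensity units in TGC3 and 27.8, 27.3 and 31.9 in TG. Scaled, these were -4.15, -4.20 and -4.25 in TGC3 cells, against -4.33, -4.39 and -4.28 in TG cells, so that all TGC3 values lay slightly above all TG values, as for 24.3% of all genes. The change of 0.14 ± 0.06 did not pass (limma, adjusted p = 0.163). The SD of the 10 single spots of an array was 0.292 to 0.473 in TGC3 and 0.232 to 0.413 in TG on the log2 scale. Its sign turned in the deposited values and under quantile normalization, cyclic loess, centring on the median and both normexp corrections (-0.08 to -0.02). A second Cd4 probe (chr6:124815401-124815459 in mm9) was not well above background on any array. Whether the transgene adds to the Cd4 signal was not tested.

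Zbtb7b, which encodes ThPOK, gave 0.43, 0.06 and 0.27 in TGC3 cells, against 0.04, 0.10 and -0.03 in TG cells. The groups overlapped through TGC3 2. The change of 0.22 ± 0.10 did not pass (limma, adjusted p = 0.178), with a 95% interval from -0.04 to 0.47. Without TGC3 2 it was 0.31 and passed (limma, adjusted p = 0.0491), as it did with weighted arrays (0.29, adjusted p = 0.0435 in limma). Gata3, a factor of the helper lineage and of type 2 helper cells that CD8+ T cells also express, had 2.20, 1.79 and 2.22 in TGC3 cells, against 2.21, 2.11 and 2.08 in TG cells. The groups overlapped, and TGC3 2 was the lowest. The change was -0.06 ± 0.13 (limma, adjusted p = 0.759), with a 95% interval from -0.38 to 0.25, and its sign turned without TGC3 2 (0.08), with weighted arrays and after cyclic loess or normexp (0.01 each).

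Markers of other cells that can express these genes were read on the same arrays. CXCR5 is also a receptor of B cells. Among B cell markers, Cd79a and Ms4a1 rose, Cd22 and Cd72 fell and Cd79b did not pass. Pax5 and Blk were well above background on no array. Ms4a1 was at least 3.52-fold higher in TGC3, since no TG array read it well above background. It passed the filter through the TGC3 arrays alone, so its rise was favoured in advance. The summed signal of the 10 B cell markers on the array, in multiples of each array's 75th percentile, was 7.45 to 7.99 in TGC3 and 9.06 to 10.9 in TG. Its brightest genes are Cd79b (change -0.03, adjusted p = 0.844 in limma) and Cd72, which fell, while Ms4a1 and Cd79a, which rose, are dim. Of 4 markers of regulatory T cells, 3 were tested, 1 rose (Il2ra) and none fell, with a median change of 0.41. Their sum was 0.546 to 0.674 in TGC3 and 0.642 to 0.927 in TG, and its brightest gene is Ikzf2, the only tested marker of these with a change below 0. Of 8 neutrophil markers, 3 were tested, 2 rose and none fell, with sums of 1.53 to 8.04 in TGC3 and 0.0411 to 0.0846 in TG. All 3 passed the filter through the TGC3 arrays, with at most 1 TG array well above background, so a rise was favoured in advance. Their TG readings were mostly at background. Over all genes 16.6% were called higher and 9.45% lower. Of 12 macrophage markers, 6 were tested, 3 rose and none fell (sums 1.25 to 3.35 in TGC3 and 0.841 to 1 in TG). Of 9 dendritic cell markers, 6 were tested, 2 rose and 1 fell (sums 21.4 to 30.6 in TGC3 and 33.2 to 37 in TG). Their brightest genes are Itgax (change -0.18, adjusted p = 0.545 in limma) and Ccr9, the gene that fell. The other 4 tested had all TGC3 values above all TG values, as for 24.3% of all genes, and the list's median change was 0.37. Of 7 NK and innate lymphoid markers, 6 were tested, 1 rose (Il1rl1, with the limit given below) and none fell. Their median change was -0.09, with sums of 41.1 to 46 in TGC3 and 36.6 to 41.6 in TG. The brightest gene of that sum is Il7r (change 0.22, adjusted p = 0.114 in limma). The part of these other cells in the results above and below was not tested.

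Calls in the wider follicular helper programme went both ways, those higher at no more than the share over all genes. Of 24 further genes listed, 22 were tested, 3 were higher, 5 lower and 14 not called. Their median change was -0.16, against -0.01 over all genes, of which 16.6% were called higher and 9.45% lower. The number higher was 0 without TGC3 1 or TG 2, with no filter on dim probes and with the replicate number as a block. It was 1 without TGC3 2, TG 1 or TG 3. Leaving out TGC3 3, TG 1 or TG 2 left 3 lower, as did no filter and the replicate block. After centring on the median 1 was higher and 11 were lower.

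Il4, a cytokine of follicular and type 2 helper cells, had the largest change of this list. Its values were -4.16, -4.45 and -4.40 in TGC3 cells, against -3.20, -2.83 and -3.03 in TG cells, separate and close to background. Such a separation with TGC3 lower was found for 22.4% of all genes. The change was -1.32 ± 0.13 (limma, adjusted p = 0.0024), or -0.53 with the normexp correction. Il21r, which encodes the receptor for IL-21, fell as well. It had 1.41, 1.27 and 1.41 in TGC3 cells, against 2.09, 1.90 and 2.17 in TG cells, a change of -0.69 ± 0.09 (limma, adjusted p = 0.00504). Both calls held without any 1 array.

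Cd200, a surface glycoprotein of follicular helper cells, and Pdcd1, which encodes the inhibitory receptor PD-1, rose. Cd200 had -2.25, -2.22 and -2.62 in TGC3 cells, against -3.47, -3.28 and -2.90 in TG cells (change 0.85 ± 0.18, adjusted p = 0.02 in limma). Pdcd1 had 0.28, -0.06 and -0.61 in TGC3 cells, against -1.24, -0.94 and -0.75 in TG cells (change 0.85 ± 0.24, adjusted p = 0.0491 in limma). Neither group pair overlapped, with TGC3 higher as for 24.3% of all genes, though TGC3 3 and TG 3 came close for Pdcd1. Leaving out TGC3 1, TGC3 2, TG 1 or TG 2 ended the call of Cd200 (adjusted p = 0.0532 to 0.0654 in limma) and its change was 0.35 with normexp. Pdcd1 did not pass without any 1 array other than TGC3 3 (0.0754 to 0.134 in limma), nor after quantile normalization, centring on the median, cyclic loess or in the deposited values (0.0589 to 0.0696).

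Of genes that oppose or assist BCL6, all 14 listed were tested, 2 were higher, 1 was lower and 11 were not called, with a median change of 0.00. Over all genes 16.6% were called higher and 9.45% lower. Klf2, a factor of resting T cells that restrains follicular helper differentiation, rose (0.31 ± 0.07, adjusted p = 0.0287 in limma). Il2ra, the alpha chain of the IL-2 receptor, rose (0.41 ± 0.12, adjusted p = 0.0484 in limma). Bcor, a corepressor of BCL6, fell (-0.36 ± 0.08, adjusted p = 0.022 in limma), but the mean of its probes gave 0.01. Prdm1, which encodes BLIMP-1, the main antagonist of BCL6, had a change of 0.11 and did not pass (limma, adjusted p = 0.499). Klf2 did not pass without any 1 array other than TGC3 1 (0.0504 to 0.0925 in limma) nor when centred on the median (0.13, adjusted p = 0.236). The call of Bcor ended on leaving out TGC3 1, TG 2 or TG 3 (0.0567 to 0.0754 in limma). Il2ra did not pass without any 1 array other than TGC3 2 (0.102 to 0.133 in limma). Under the other normalizations and background corrections its change was 0.09 to 0.24 without passing.

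Since Bcl6 itself fell, its promoter is shown with the motif TTCNNNGAA, which BCL6 and STAT sites share. The motif is its own reverse complement, so both strands are covered. The window is the 250 bases before the second of the 2 starts that RefSeq gives (GRCm38.p6, chr16:23981284-23981533, minus strand), with matches in capitals.
Bcl6: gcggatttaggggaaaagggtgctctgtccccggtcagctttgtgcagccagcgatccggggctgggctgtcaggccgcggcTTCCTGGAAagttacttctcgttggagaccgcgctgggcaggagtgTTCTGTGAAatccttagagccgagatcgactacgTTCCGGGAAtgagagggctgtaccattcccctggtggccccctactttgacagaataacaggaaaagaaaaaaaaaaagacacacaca
The matches begin 168, 122 and 88 bases before the start. The window of the other start holds 1. Of all 32851 windows of this length, 7.02% hold at least 1 match. RefSeq windows were matched for 6 of the 10 members (9 windows), with none for Cxcr5, Icos, Ikzf2 or Cd4. The motif is in 3 of the 9, which are the 2 of Bcl6 and 1 of Foxp3, so they stand for only 2 genes. No match was found in the window of Izumo1r. A match is a run of letters and not a measured binding site.

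In the regulatory T programme 7 of 20 tested genes were higher, 0 lower and 13 not called, with a median change of 0.04. The shares over all genes were 16.6% higher and 9.45% lower. Il1rl1, the IL-33 receptor, had -2.94, -3.62 and -3.20 in TGC3 cells, against -5.16, -4.81 and -5.51 in TG cells, where only 1 of 3 arrays was above background (fitted change 1.91 ± 0.23, adjusted p = 0.00432 in limma). It passed the filter through the TGC3 arrays, so the size of its change is uncertain, and with a filter on all 6 arrays it was not tested and 6 of 19 genes of the list were higher. Nrp1, which encodes neuropilin-1, had -2.39, -2.50 and -2.63 in TGC3 cells, against -3.81, -4.46 and -3.88 in TG cells (change 1.54 ± 0.18, adjusted p = 0.00396 in limma). Both genes are dim, and both had all TGC3 values above all TG values, as for 24.3% of all genes. Nrp1 was well above background on all 6 arrays, and its call held when any 1 array was left out. That of Il1rl1 held as well, but the filter it passed favoured a rise, so this is no support for its call. With normexp the changes were 0.42 for Il1rl1 and 0.55 for Nrp1.

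Socs2, an inhibitor of cytokine signalling, rose (0.83 ± 0.16, adjusted p = 0.0147 in limma; 0.0507 without TG 1). Ebi3, a subunit of IL-27 and IL-35, rose by 0.44 ± 0.08 (limma, adjusted p = 0.0139), but did not pass without TG 2 (0.0512) or under the other normalizations and background corrections (changes of 0.11 to 0.28, adjusted p = 0.0712 to 0.144 in limma). Ctla4, an inhibitory receptor of regulatory T cells, had a change of 0.69 and did not pass (limma, adjusted p = 0.0718). The list's count higher was 3 after quantile normalization, centring on the median, cyclic loess and both normexp corrections and in the deposited values. It was 4 without TG 1 or TG 2. After centring on the median 5 were lower. Of the 1639 dimmest genes tested 27% were called higher, and of the next 1639, among them Il1rl1, Il2ra, Ebi3 and Cd4, 30.8%.

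**Figure D3:**
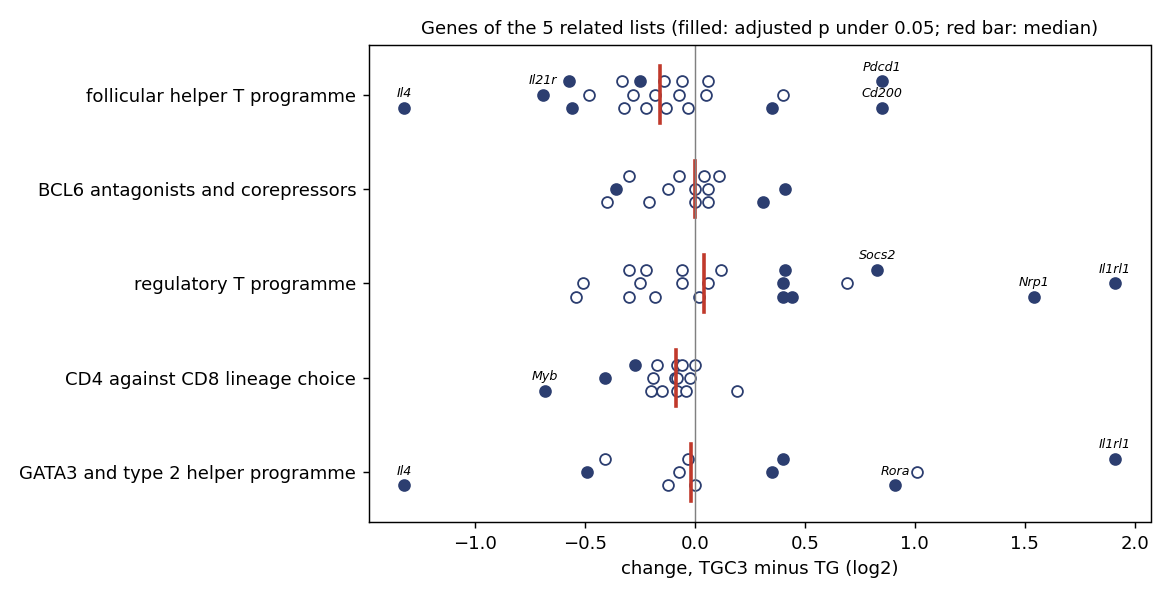
Change of each tested gene of the 5 related lists, as TGC3 minus TG on the log2 scale (x axis), with the list on the y axis. Filled points passed the threshold, the red bar is the list's median, and labelled genes passed with a change beyond 0.6 either way. The medians lie between -0.16 and 0.04, with called genes on both sides of 0 in the follicular helper, BCL6 and type 2 helper lists.

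Among genes of the choice between CD4 and CD8 lineages, the few calls were all lower. All 16 were tested, 0 were higher, 3 lower and 13 not called, with a median change of -0.09. The shares over all genes were 16.6% higher and 9.45% lower. Myb, a factor of early T cells, had 0.21, 0.73 and 0.44 in TGC3 cells, against 1.13, 1.29 and 1.01 in TG cells (change -0.68 ± 0.15, adjusted p = 0.0213 in limma). Cd5, a negative regulator of T cell receptor signals (-0.41 ± 0.11, adjusted p = 0.035 in limma), and Tcf12, which encodes the E protein HEB (-0.27 ± 0.07, adjusted p = 0.0314 in limma), fell by less. Runx3, the silencer of Cd4, had a change of -0.19 and did not pass (limma, adjusted p = 0.117). Leaving out TGC3 3, TG 1 or TG 2 ended the call of Myb (0.0617 to 0.069 in limma). Cd5 did not pass without any 1 array other than TGC3 2 (0.07 to 0.0992 in limma), nor Tcf12 without any 1 other than TG 1 (0.0602 to 0.0918 in limma). The mean of the probes of Tcf12 gave -0.16 and did not pass (limma, adjusted p = 0.213). After centring on the median 9 of the 16 were lower. The number was 1 after cyclic loess normalization and without TGC3 1, TG 1 or TG 3, and 0 without TGC3 3 or TG 2.

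Among genes of GATA3 and type 2 helper cells, 12 of 16 were tested, 4 were higher, 2 lower and 6 not called, with a median change of -0.02. Il1rl1, with the limit given above, and Il4 are among them. The shares over all genes were 16.6% higher and 9.45% lower. Rora, a nuclear receptor of type 2 innate lymphoid cells and of T cells, rose. It had 1.86, 1.81 and 2.04 in TGC3, against 1.02, 0.97 and 1.00 in TG (change 0.91 ± 0.08, adjusted p = 0.00195 in limma). This call held without any 1 array. Il4ra, the receptor chain for IL-4 and IL-13, fell (-0.49 ± 0.14, adjusted p = 0.0492 in limma), but not without any 1 array other than TGC3 2 (0.087 to 0.138 in limma). The number lower was 1 without TGC3 3 or any 1 TG array.

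**Figure D4:**
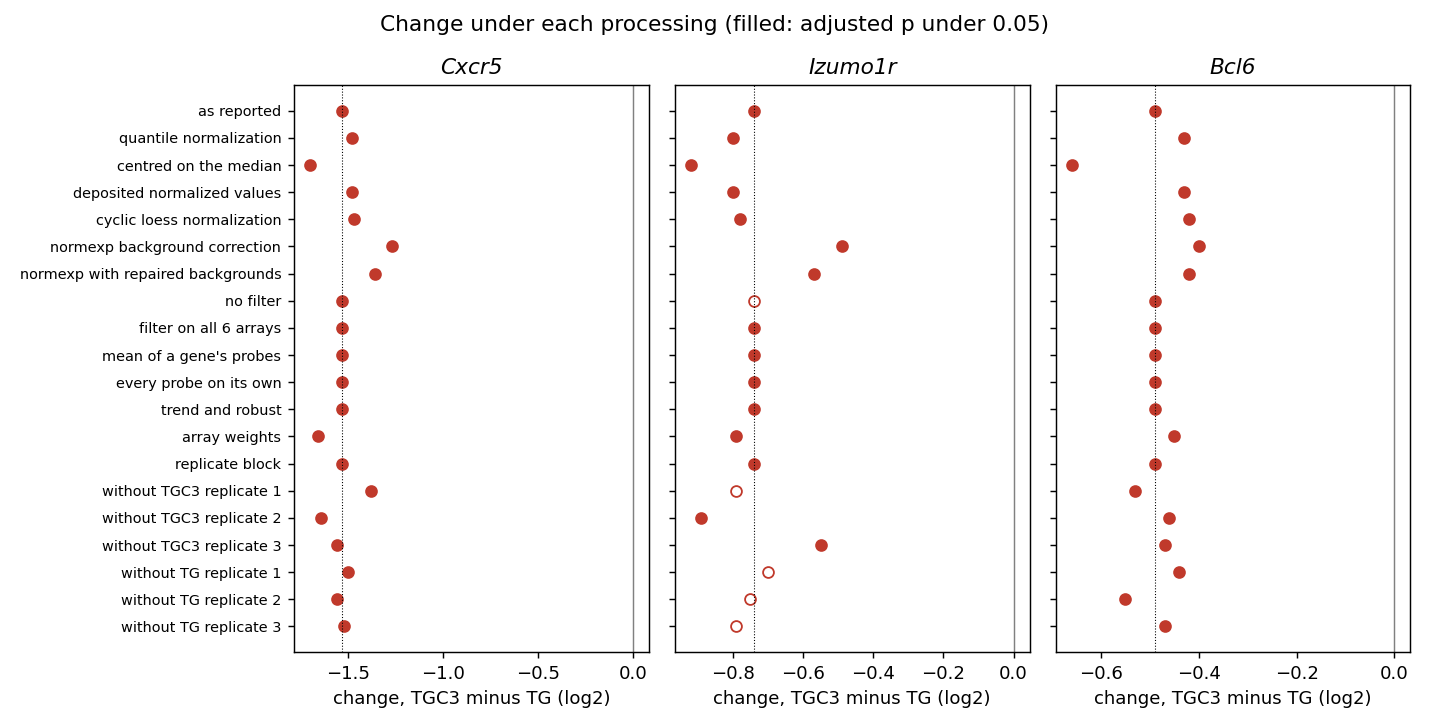
Change of Cxcr5, Izumo1r and Bcl6, as TGC3 minus TG on the log2 scale (x axis), under each way of processing (y axis). Filled points passed the threshold, and the dotted line marks the value reported here. Cxcr5 lies between -1.70 and -1.27 and Bcl6 between -0.66 and -0.40, filled throughout, while Izumo1r has 5 open points.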

How the data were processed

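Cy3-labelled RNA was hybridised to 1-colour Agilent arrays (45018 spots), per the labels and the file headers. The authors deposited a processed signal, an intensity that was background-subtracted and detrended by Feature Extraction 10.7.3.1, per the file headers (10.7.1.1 per the submitters' processing notes), with no normalization between arrays. The deposited mean and background signals are unprocessed intensity readings, per the file headers. The deposited matrix holds log2 values whose columns share 1 median (5.57), and how it was made is not given in the sources used here. Well above background is a deposited flag per spot. Spots flagged as outliers (98 to 122 per array) were left out. For the remaining spots of a probe, means of log2 values were taken and the majority of well above background flags. The 11 probes left without a spot on any 1 array were dropped. The well above background flag sets the depth, since arrays give no counts, and precision is limited by there being 6 arrays.

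Probes flagged on at least 3 of 6 arrays were kept (25103). Names were updated from RefSeq by accession (27664 probes), symbol (5585) or synonym (471), and 7443 kept the file's name. A gene's value is that of the kept probe with the highest mean. The two-sided comparison of TGC3 and TG used lmFit and eBayes of limma 3.58.1 in R 4.3.3, with the package data.table at version 1.17.8. Figures used Python 3.11.15, numpy 2.4.6, pandas 2.3.3 and matplotlib 3.10.9. The fit was tested on simulated data. The alternatives were other normalizations, background corrections, filters, probe rules and model settings, and leaving out each array.

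Genes named are the 10 members, Cxcr3, Cd8a, Cd8b1 and Cd3e, and up to 4 called genes of each list with the largest change. Prdm1, Ctla4, Runx3, Cd3d, Cd3g, the other called list genes and the markers of other cells were named after their values were seen, and 1 marker is not reported here. The members and lists were chosen with earlier results of these data known.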

Additional observations from a re-analysis of the deposited data

How the results depend on the processing

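Over 19 alternatives, 638 of 835 recomputed values were scored as the same. For a gene this means the same direction and side of the threshold, and for a list's median a shift within its spread. Counts were scored as the same within a set fold of the count reported, so they may still differ widely. The counts over all genes were 2720 higher and 1548 lower. They were 1801 and 4766 after centring on the median (27.4% of calls higher, against 63.7%), with the median of all genes at -0.18. 578 were lower with no filter and 2414 with array weights, and leaving out 1 array gave 1752 to 2356 higher and 573 to 1505 lower. Of the members, 3 were lower and 0 higher in limma, with 6560 of all genes at an unadjusted p under 0.05. 5 members were lower after centring on the median (Icos and Ikzf2 added), 1 was higher with array weights (Zbtb7b), and leaving out 1 array gave 2 to 3 lower and 0 to 1 higher. With no filter Izumo1r (adjusted p = 0.0652), and Cd200, Pdcd1, Il2ra, Bcor, Klf2, Myb, Cd5, Tcf12 and Il4ra (0.0506 to 0.105), missed the threshold. Signs turned for Cd4 (-0.08 with quantile and deposited values, -0.07 with cyclic loess, -0.04 centred on the median, -0.02 with either normexp), Gata3 (0.01 with cyclic loess, either normexp and array weights, 0.08 without TGC3 2, in a range of -0.14 to 0.08 on leaving out 1 array), Cd8b1 (0.02 with cyclic loess) and Bcor (0.01 as the mean of its probes). In these cases the cause was not tested. Replicate numbers share only their digit: deviations of same-numbered arrays from their group means correlated at -0.00, -0.08 and -0.10, and arrays did not correlate best with their own number. With the replicate number as a block 1795 genes were higher and 554 lower, and Cxcr5, Izumo1r and Bcl6 were still called. In the normexp corrections, 7 spot backgrounds of TG 3 over 10 times the median were kept or repaired. Il21 and Foxp3 are limited by signal over background.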

Other observations

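The lists held 7 other genes that passed the threshold, named here because they passed it. Il6st, which encodes gp130, the signalling chain of the IL-6 receptor, had 1.06, 0.95 and 0.82 in TGC3 and 1.51, 1.55 and 1.48 in TG (change -0.57 ± 0.08, adjusted p = 0.00563 in limma), and was called without any 1 array. Il6ra, the IL-6 binding chain, had -2.03, -2.22 and -2.05 in TGC3 and -1.39, -1.45 and -1.78 in TG (change -0.56 ± 0.12, adjusted p = 0.0216 in limma). The call ended on leaving out TGC3 2, TGC3 3, TG 1 or TG 2 (0.0529 to 0.0717 in limma). Stat3, which carries signals of both IL-6 and IL-21, changed by -0.25 ± 0.07 (limma, adjusted p = 0.0401), a call lost without any 1 of the 6 arrays (0.0509 to 0.122 in limma). Il6st, Il6ra and Stat3 are among the 5 lower genes of the follicular helper list already counted.

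Maf, a factor of follicular and type 2 helper cells, rose (0.35 ± 0.07, adjusted p = 0.0177 in limma), though not without TGC3 1, TG 2 or TG 3 (0.0523 to 0.0626 in limma) or when centred on the median (0.17, adjusted p = 0.131 in limma). The mean of its probes gave 0.22 and did not pass (limma, adjusted p = 0.166). Ptgdr2, the prostaglandin D2 receptor CRTH2, rose and was called without any 1 array (0.40 ± 0.07, adjusted p = 0.0103 in limma). It was 0.16 with normexp, where it still passed (adjusted p = 0.0437 in limma). Ikzf4, which encodes the Ikaros family factor Eos, rose by 0.40 ± 0.07 (limma, adjusted p = 0.012), but did not pass under the other normalizations and background corrections (0.11 to 0.28, adjusted p = 0.0506 to 0.118 in limma). Tnfrsf9, which encodes the costimulatory receptor 4-1BB, rose by 0.40 ± 0.11 (limma, adjusted p = 0.0452), and did not pass without any 1 array other than TG 3 (0.0787 to 0.126 in limma) or under the other normalizations and background corrections (0.17 to 0.30, adjusted p = 0.119 to 0.178 in limma).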
